A study of Homo sapiens with 6 samples.

Results

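The enzymes described here build or sulfate glycosaminoglycans, the long sugar chains of proteoglycans, except CHST10, which makes the HNK-1 sugar epitope. They were chosen by name from the authors' deposited table of genes called as changed between HepG2 cells given an siRNA against H19 (siH19, 3 libraries) and cells given a control siRNA (siCon, 3 libraries): genes named CHST, CHPF, CHSY, HS with a sulfotransferase number, or NDST. The pattern found 9 of the 1998 genes in the table. GENCODE release 29 annotates 34 protein-coding genes with such names, and the other 25 were not analysed here. All of the table's genes (100%) had an adjusted p under 0.05, so the comparison of siH19 with siCon itself chose the members, and their changes are given as a description with no test.

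HepG2 cells come from a liver tumour and still make many hepatocyte products, and H19 is a long noncoding RNA from an imprinted locus. Both groups were harvested 48 h after transfection, and their RNA was sequenced after removal of ribosomal RNA, with a strand-specific kit. The study looked for genes that H19 regulates in hepatic cells. The level of H19 itself was not analysed here, which leaves siH19 as a label, and neither siRNA sequence was used here. Of 9 hepatocyte markers, 8 had a row in the table, albumin and AFP among them, which means that they were called as changed. All 8 were lower in siH19, in a table where 55.3% of genes were lower.

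Chondroitin and heparan sulfate are both begun on a shared linkage sugar sequence attached to a core protein and then part ways in the Golgi. Chondroitin chains alternate glucuronic acid with N-acetylgalactosamine, and dermatan sulfate is a form in which some glucuronic acid has been epimerised. Heparan sulfate chains alternate the uronic acid with glucosamine, and their sulfates form binding sites for growth factors, antithrombin and lipoproteins. Hepatocytes are known for heparan sulfate that is rich in sulfate. Every sulfotransferase of these chains takes its sulfate from the same donor, PAPS.

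All 4 chondroitin and dermatan enzymes were higher in siH19, while of 3 heparan sulfate enzymes 1 was higher and 2 were lower. Both enzymes that act on other sugars, CHST6 and CHST10, were higher. Of all genes in the table, 44.7% were higher in siH19 and 55.3% were lower. The median log2 fold change (siH19 over siCon) in the authors' deposited table was 0.45 over the chondroitin enzymes, -0.45 over the heparan sulfate enzymes and -0.27 over all 1998 genes. The heparan sulfate median rests on HS3ST5, a gene of low count: over the other two enzymes it was 0.045. As the members were picked by this same comparison, the counts describe which of these enzymes were called and do not test a class.

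A sequence in the 3' untranslated region (UTR) was shared by 3 of the enzymes, and the sites are shown because they fall in the gene that changed most and in 2 others that were higher. GCAGTAC, a 7-letter sequence that an earlier search of these data had tied to higher levels in siH19, occurred once each in the longest annotated 3' UTRs of CHPF, CHST6 and CHST15. Capitals mark the match and the lower-case bases are its surroundings, 5′ to 3′ on the transcript strand.
CHPF: cacgtatttatGCAGTACagtctgcctgac
CHST6: tctgcgcatggGCAGTACagtcaagcctca
CHST15: tatatttatttGCAGTACagtgcgcgcgtg
The site of CHPF lies at chr2:219539097-219539126, that of CHST6 at chr16:75475661-75475690 and that of CHST15 at chr10:124008356-124008385, all on the minus strand of GRCh38 and in the terminal untranslated part of the gene by the GENCODE annotation. They start 268, 2962 and 1775 bases after the stop codon, in UTRs of 436, 6589 and 2483 bases.

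GCAGTAC was thus held by 3 of 9 members (33.3%), all higher in siH19. It was held by 180 of the 1880 genes of the table whose 3' UTR could be searched (9.57%) and by 857 of 19127 annotated genes (4.48%). Longer UTRs can hold more sequences, and the median 3' UTR had 2483 bases in the members, 1617.5 in the searched genes of the table and 1102 in all annotated genes. Of those 180 genes 83.3% were higher in siH19, against 41.4% of the 1700 without it, and their medians on the log2 scale, from the authors' deposited table, were 0.41 and -0.30. The earlier search picked GCAGTAC for this split in these same fold changes, so the split restates that choice and adds no support to the direction of the 3 members. Only the transcript strand was searched. By class, the sequence was in 2 of 4 chondroitin enzymes, in 0 of 3 heparan sulfate enzymes and in 1 of the 2 others. The 4 other members that were higher, CHST3, CHST14, CHST10 and HS6ST1, did not hold these letters. The shorter core CAGTAC was in 4 members, the fourth being HS3ST3B1, a heparan sulfate enzyme that was lower, and in 534 of the searched genes of the table (28.4%), of which 59.2% were higher.

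After the sites had been read, the match was seen to run on: the 3 sites share the 10 letters GCAGTACAGT. The bases on either side of that run are not the same in all 3. The 10 letters were found in the 3' UTR of 9 of 1880 searched genes of the table (0.479%), of which CHPF, CHST6 and CHST15 are 3, and in 33 of 19127 annotated genes (0.173%). The UTR lengths of the 3 members span a wide range, and CHPF has the shortest 3' UTR of the 9 members. In the table, 125 genes had a 3' UTR within 20% of CHPF's length, and 2 of these (1.6%) held GCAGTAC, CHPF itself and TACC2. No such share was taken at the longer UTR lengths of CHST6 and CHST15, so this one applies to CHPF only. A second sequence from the earlier search, CATCAAA, was found in 0 of 9 members, against 332 of 1880 searched genes of the table (17.7%). A match is a run of letters in the annotation and was not tested as a binding site.

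**Figure D1:**
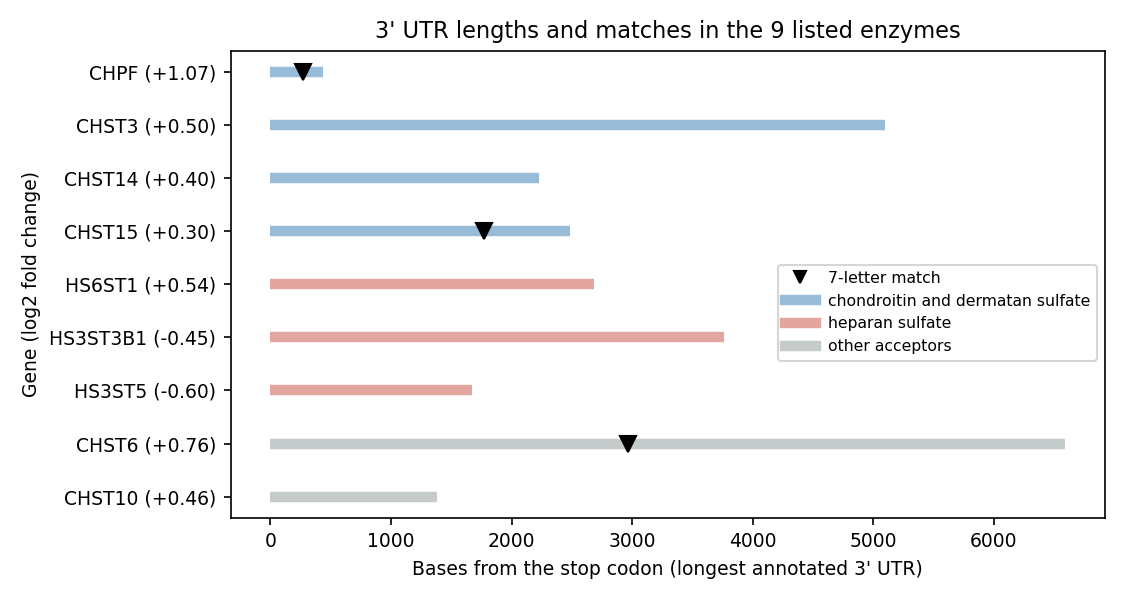
Bars show the longest annotated 3' UTR of each member, in bases from the stop codon, coloured by acceptor class, with the log2 fold change (siH19 over siCon) beside the name; triangles mark GCAGTAC. The 3 triangles are in CHPF, CHST15 and CHST6, all higher in siH19, and CHPF carries its site in a UTR of 436 bases.

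CHPF, the chondroitin polymerizing factor that works with the chondroitin synthases to lengthen the chain, changed most. Its group value in the authors' deposited table was 9.95 in siH19 and 8.87 in siCon on the log2 scale, which is 989 normalized counts in siH19 and 468 in siCon. The log2 fold change in the authors' deposited table was 1.07 ± 0.13 (SE, 3 libraries per group), or 2.10-fold, with an adjusted p written as 0, below the table's precision. Only 18 of the 893 higher genes in the table had a larger fold change. CHPF was the 1 member that at least doubled.

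Of the 3 chondroitin sulfotransferases among the members, CHST3 and CHST15 place sulfate on the sixth carbon and CHST14 on the fourth. CHST3, which sulfates N-acetylgalactosamine at its sixth carbon, had 1660 normalized counts in siH19 and 1180 in siCon, and a log2 fold change of 0.50 ± 0.10 and an adjusted p of 1.1e-05 in the authors' deposited table. Among the chondroitin sulfotransferases it was the one furthest from 0 in units of its SE, at 5.0.

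CHST14, the enzyme that sulfates dermatan at the fourth carbon, was the least abundant chondroitin enzyme of the table, with 181 normalized counts in siH19 and 137 in siCon. Its log2 fold change in the authors' deposited table was 0.40 ± 0.15, with an adjusted p of 0.041. CHST15, which adds a second sulfate to N-acetylgalactosamine that already carries one, had 1690 normalized counts in siH19 and 1370 in siCon. Its log2 fold change of 0.30 ± 0.11 in the authors' deposited table came with an adjusted p of 0.0496, just inside the authors' limit, and the largest adjusted p in the whole table was 0.0498. Genes just outside the limit were not analysed here. Both calls would be lost at an adjusted p under 0.01, which 64.8% of the genes in the table pass, and CHPF and CHST3 would stay.

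The 3 heparan sulfate enzymes in the table, of 15 annotated, did not share a direction. HS6ST1, which sulfates glucosamine at its sixth carbon, had 1770 normalized counts in siH19 and 1220 in siCon, a log2 fold change of 0.54 ± 0.13 with an adjusted p of 0.000353 in the authors' deposited table. The other two belong to the family that adds the rare sulfate at the third carbon of glucosamine, the last step of heparan sulfate modification. HS3ST3B1 was lower, with 526 normalized counts in siH19 and 714 in siCon, and a log2 fold change of -0.45 ± 0.11 (adjusted p 0.000638) in the authors' deposited table.

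HS3ST5, which can make the antithrombin binding site of heparan sulfate, was also lower, at 28.6 normalized counts in siH19 and 43.4 in siCon. Its log2 fold change in the authors' deposited table was -0.60 ± 0.21, with an adjusted p of 0.0321. It would be lost at an adjusted p under 0.01 and at a mean count of at least 100. SULF2, an extracellular enzyme that removes sulfate from the sixth carbon of heparan sulfate, was higher, at 0.67 ± 0.10 in the authors' deposited table.

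CHST6 and CHST10 carry the CHST name and do not build chondroitin. CHST6 sulfates N-acetylglucosamine of keratan sulfate and is best known from the cornea, and CHST10 makes the HNK-1 sugar epitope known from nerve cells. CHST6 had 44.6 normalized counts in siH19 and 26.4 in siCon, and a log2 fold change of 0.76 ± 0.21 (adjusted p 0.00456) in the authors' deposited table. CHST10 had 449 normalized counts in siH19 and 326 in siCon, and a log2 fold change of 0.46 ± 0.13 (adjusted p 0.00332) in the authors' deposited table. CHST6 had the second largest rise among the members and the lowest count.

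**Figure D2:**
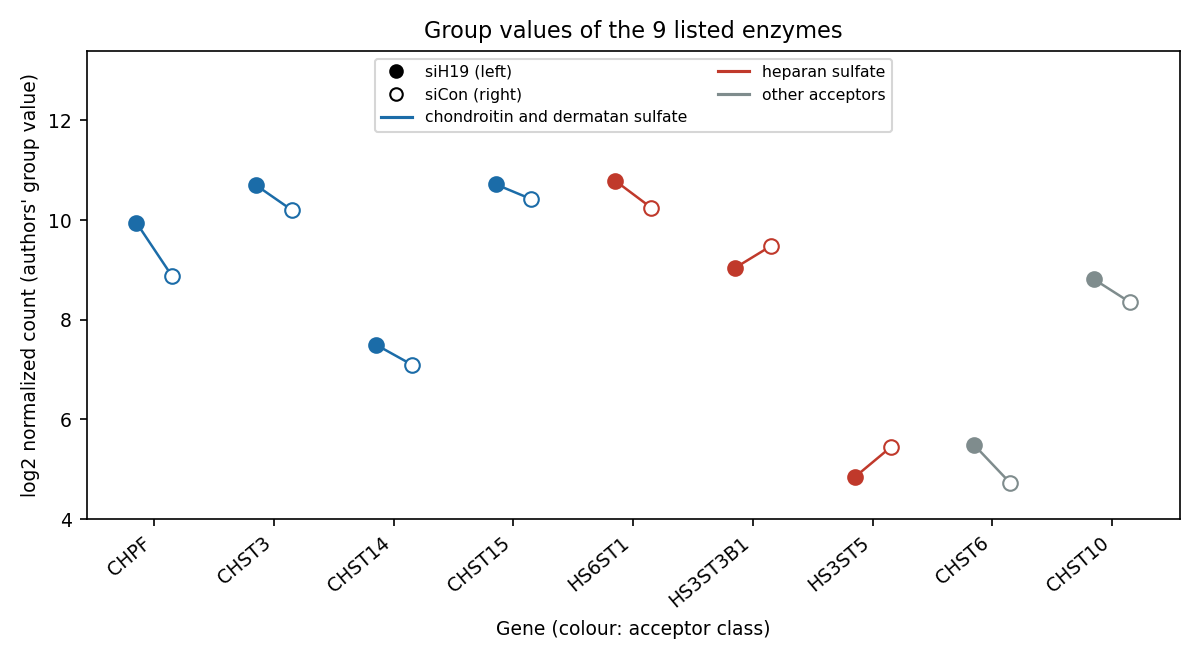
Each pair of points gives the authors' log2 normalized count of 1 gene, siH19 (filled, left) and siCon (open, right), with 1 combined value per group and no error; colours give the acceptor class. The line falls toward siCon for 7 genes and rises toward siCon for HS3ST3B1 and HS3ST5.

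**Figure D3:**
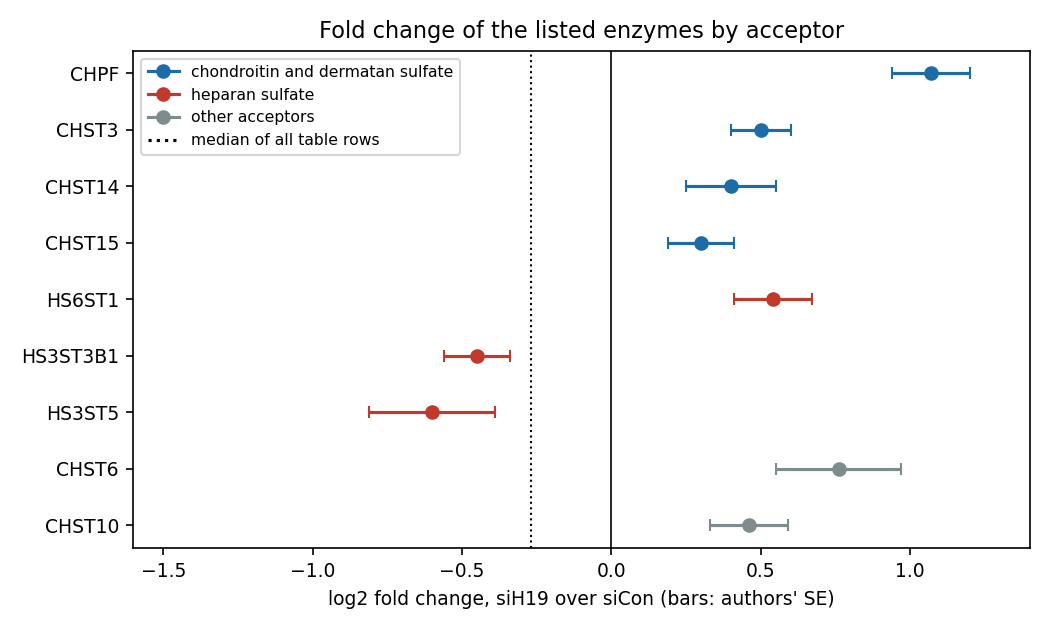
Points are the log2 fold changes (siH19 over siCon) of the 9 members with the authors' SE as bars; the dotted line is the median of all genes in the table, -0.27. The 4 chondroitin enzymes lie between 0.30 and 1.07, and the heparan sulfate enzymes lie on both sides of 0.

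In size most members were ordinary among the called genes. In the whole table, 12.6% of genes were at least 1.5-fold higher in siH19, a size that CHPF and CHST6 reached, and 15.6% were at least 1.5-fold lower, which HS3ST5 reached. The median of all higher genes in the authors' deposited table was 0.46, the value of CHST10, and the median of all lower genes was -0.44, next to HS3ST3B1. CHST14 and CHST15 had smaller fold changes than the median higher gene.

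Divided by the length of the merged annotated exons, the members' levels in siH19 ran from 5.18 normalized counts per kb for CHST6 to 378 for HS6ST1. In the order of that scale in siH19, HS6ST1 was followed by CHPF at 295, CHST15 at 257 and CHST3 at 239 normalized counts per kb. In siCon the order was HS6ST1 at 260, CHST15 at 209, CHST3 at 169 and CHPF at 139 normalized counts per kb, so CHPF stood behind HS6ST1 alone in siH19 and behind 3 members in siCon. HS3ST3B1 had 98.1 normalized counts per kb in siH19 and 133 in siCon, which put it just below CHST10 in siH19 and above it in siCon. HS3ST5 and CHST6 were the lowest in both groups. The table gives no error for a level, so neighbours in this order were not tested against each other.

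Errors were largest in CHST6 and HS3ST5, the members of lowest count, and count did not strictly order the errors of the other members. For CHST6 and HS3ST5 the SE of 0.21 in the authors' deposited table was close to what counting alone would give for 3 libraries per group if normalized counts were reads, 0.205 and 0.201. No gene of the deposited table had an SE above 0.22, although mean counts went down to 12.32. The closeness at low count therefore does not show that CHST6 and HS3ST5 had no spread beyond counting. For HS6ST1 counting alone would give 0.031, against 0.13 in the authors' deposited table. The depth of the libraries is unknown, since their totals were not used here.

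Some reads of these genes may not be assignable. Of the 76-base windows of the HS6ST1 transcript, 15.1% also occur in its pseudogene HS6ST1P1, and 8.94% of those of HS3ST3B1 also occur in its neighbour and close copy HS3ST3A1. CHST6 shares 5.15% of its windows with other annotated transcripts, mostly of the antisense gene AC009163.1, and CHPF shares 1.7% with TMEM198 on the opposite strand. Windows were compared on both strands, and the kit was strand-specific. A match to a gene on the opposite strand therefore blurs reads only where strand was not used in counting. The remaining 5 members shared 0 windows. How the authors treated such reads is not stated in the labels, and the values of HS6ST1 and HS3ST3B1 carry that doubt. CHST10, HS6ST1 and CHPF all lie on chromosome 2 and CHST3 and CHST15 on chromosome 10, at separate places.

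Other genes of glycosaminoglycan metabolism were taken from 9 lists with 125 symbols, of which 19 were in the table, 11 higher and 8 lower. Their median log2 fold change was 0.39. Of all genes in the table, 44.7% were higher and 55.3% lower, with a median of -0.27. In each of 3 chain-building steps outside the name pattern only 1 listed enzyme was in the table, and it was higher. Single called genes do not describe a whole step. CSGALNACT1, which adds the first N-acetylgalactosamine and so commits a chain to chondroitin, had 307 normalized counts in siH19 and 155 in siCon, and stood at 0.98 ± 0.14 in the authors' deposited table. PXYLP1, a phosphatase that acts on the xylose of the linkage region, stood at 1.17 ± 0.18 in the authors' deposited table, and B3GNT7, which extends keratan chains, at 0.92 ± 0.22.

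The 3' UTR of PXYLP1 holds GCAGTAC 8 bases after its stop codon, at chr3:141293206-141293235 on the plus strand of GRCh38, and is shown for comparison with the sites above.
PXYLP1: aaggtatGCAGTACagcagtatagaatcca
Its match runs 2 letters further, AG, as in the 3 members and then differs. CSGALNACT1 does not hold GCAGTAC and holds CATCAAA.

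All 4 genes for sugar nucleotides in the table, of 15 symbols, were lower, with a median log2 fold change of -0.535, in a table where 55.3% of genes were lower. GFPT1, which opens the hexosamine pathway, stood at -0.61 ± 0.08 in the authors' deposited table, and the Golgi sugar nucleotide transporter SLC35D2 at -0.59 ± 0.10. UAP1, which makes UDP-N-acetylglucosamine, stood at -0.48 ± 0.10 in the authors' deposited table, and UGDH, which makes the glucuronic acid donor, at -0.27 ± 0.08. CATCAAA was found in the 3' UTRs of 6 of the 19 pathway genes: GFPT1, SLC35D2 and IMPAD1, which were lower, and CSGALNACT1, GPC6 and COL18A1, which were higher. It was held by 17.7% of the searched genes of the table, of which 28% were higher. As CATCAAA came from the earlier search of these data, these counts are a description and were not tested.

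Genes for the sulfate donor were divided, 1 higher and 2 lower of 9 symbols. PAPSS1, which makes PAPS, was higher at 0.41 ± 0.08 in the authors' deposited table. The sulfate transporter SLC26A1 was lower at -0.59 ± 0.19 in the authors' deposited table, as was IMPAD1, the Golgi phosphatase that clears the spent donor, at -0.32 ± 0.08. Of 8 symbols for other Golgi sulfotransferases, 0 were in the table.

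Of 41 symbols for core proteins that carry the chains, 6 were in the table, 5 higher and 1 lower, with a median log2 fold change of 0.40, in a table where 44.7% of genes were higher. In the authors' deposited table perlecan, HSPG2, stood at 0.39 ± 0.11, the collagen COL18A1 at 0.41 ± 0.13, the glypican GPC6 at 0.39 ± 0.10 and the syndecan SDC3 at 0.44 ± 0.16, all of which carry heparan sulfate. COL9A2, a chain of the collagen that can carry chondroitin sulfate, stood at 0.56 ± 0.11 in the authors' deposited table. Betaglycan, TGFBR3, which can carry both chains, was lower at -0.40 ± 0.08 in the authors' deposited table.

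Genes of lysosomal breakdown were divided, 1 higher and 1 lower in the table out of 20 symbols. The sulfatase GALNS was higher (0.53 ± 0.16) and the hyaluronidase HYAL1 was lower (-0.60 ± 0.11) in the authors' deposited table.

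**Figure D4:**
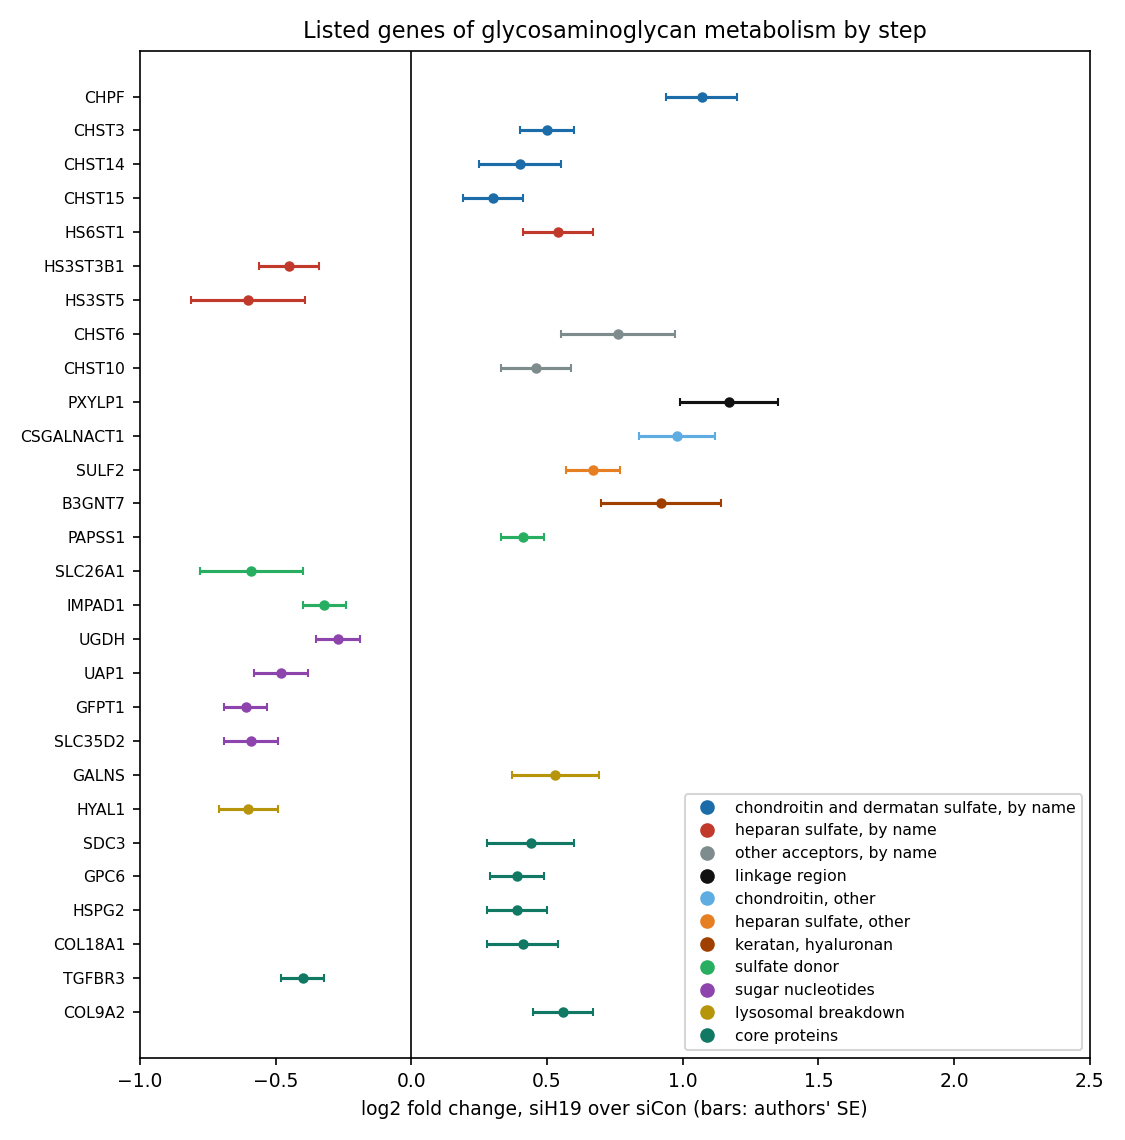
Points are log2 fold changes (siH19 over siCon) with the authors' SE as bars, for the 9 members (top, by acceptor) and the 19 other listed genes of glycosaminoglycan metabolism, coloured by step. All 4 sugar nucleotide genes lie below 0, and the 4 chondroitin enzymes with CSGALNACT1 lie above 0.

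Markers of cell identity moved in the same libraries. All 8 hepatocyte markers in the table were lower, in a table where 55.3% of genes were lower. Their summed normalized counts were 311713 in siH19 and 486893 in siCon, of which APOB alone gave 183000 and 299000. The 3 bile duct and progenitor markers in the table, of 7, were higher, in a table where 44.7% of genes were higher. They summed to 10927 normalized counts in siH19 and 7139 in siCon, of which SPP1 alone gave 8840 and 6120. Of 18 markers of stellate, endothelial and blood cells 4 were in the table and all 4 were lower. All libraries were of HepG2, a cell line, so these are levels in HepG2 cells and do not count other cell types. Bulk RNA does not tell a change in all cells from a change in some of them. The part of these shifts in the enzymes' values was not tested.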

How the data were processed

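RNA-seq was made from 6 HepG2 libraries, 3 siH19 and 3 siCon. The submitters' processing notes name hg19 as the build and, without roles, DESeq2 1.0.0, Cufflinks 2.2.1 and STAR 2.5.0a. The authors deposited 1 table with a log2 normalized count per group, a mean normalized count (a signal, not whole reads), a log2 fold change, its SE and an adjusted p-value (q value). Values per library were not used, the columns of samples outside the series numbered 0, and no test was added. Whether the libraries are separate cultures is not stated in the labels, so the deposited SEs may measure technical spread only. The deposited fold change equalled siH19 minus siCon within 0.011 in all 1998 rows.

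All members of the name pattern and the listed pathway genes were named, except a few pathway genes that are not reported here and are left out of the counts. The members, enzyme classes and lists were chosen with earlier results of these data known. GENCODE 29 (GRCh38), on another build than the authors', gave 3' UTRs (the longest of a gene's coding transcripts with an annotated stop), exon lengths and shared 76-base windows. Exact symbols matched for 1921 of 1998 rows. Summaries used Python 3.11.15 and pandas 2.3.3. The class summaries and the finding of a sequence's position were tested on simulated data. Reading the UTRs from the annotation and counting the genes that hold a sequence were not tested in this way.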

Additional observations from a re-analysis of the deposited data

How the results depend on the processing

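Of 44 values under other settings 30 stayed within 1.5 times the count reported or within the class's median SE of its median, 12 moved further and 2 changed sign. Of the 30, 10 were counts of 0 lower enzymes, which a filter alone cannot raise. Others of the 30 could hardly move either. Leaving out genes that overlap another gene of the table removed no member. Counting every CHST gene as chondroitin could not change the heparan sulfate values. Replacing fold changes by differences of group values could move a median by rounding only. The 30 therefore do not all measure stability. At an adjusted p under 0.01, 2 chondroitin enzymes stayed higher and 1 heparan sulfate enzyme stayed lower, and the class medians became 0.785 and 0.045 on the log2 scale. At a mean count of at least 100, 1 heparan sulfate enzyme stayed lower, 1 enzyme of another acceptor stayed higher, and the heparan sulfate median was again 0.045, because HS3ST5 drops out in both settings. At a change of at least 1.5-fold, 1 chondroitin enzyme and 1 other enzyme stayed higher, 0 heparan sulfate enzymes were higher and 1 was lower. With every CHST gene counted as chondroitin, 0 were left for other acceptors. The heparan sulfate mean weighted by SE was -0.11. The 6-letter ATCAAA was in 2 members (44.7% of searched genes of the table), and CAGTAC was in 4. No paired analysis was possible because the table holds 1 combined value per group, and for the same reason no replicate could be left out. Depth is unknown.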

Other observations

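Beside CHPF, CHST6 and CHST15, the genes of the table with GCAGTACAGT in the longest annotated 3' UTR were ANKRD50 (0.68 ± 0.12), TMEM170B (0.58 ± 0.16), SMAD2 (0.39 ± 0.09), CORO2A (0.31 ± 0.11), TSPAN3 (0.24 ± 0.09) and KYNU (-0.70 ± 0.11), given as log2 fold changes of siH19 over siCon with SE from the authors' deposited table. Of all 9 genes 8 were higher and 1 was lower, with a median of 0.39. The shorter run GCAGTACA was in 76 searched genes of the table (4.04%), 66 higher and 10 lower. Both runs were looked up after the sites of the members had been read, so they are a description of these genes and no test was made. Both runs contain GCAGTAC, of whose 180 holders 83.3% were higher, in a table where 44.7% of genes were higher. GCAGTAC was picked for that split in these same fold changes, so the directions of both runs add no support to it. KYNU and SMAD2 have the longest annotated 3' UTRs of the 9, at 13660 and 32870 bases.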
